A study of Mus musculus with 12 samples.

Results

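Iron handling was examined through 10 genes chosen by symbol: Lcn2, Steap4, Tfrc, Trf, Slc11a1, Fth1, Ftl1, Slc40a1, Cp and Hmox1. All 10 were found among the 40853 gene symbols of the RNA-seq tables, and all 10 passed the low-count filter in every fit. The mice carried either normal Kpna4 (wild type, WT) or a knockout (KO) of this gene, which encodes importin α4, a receptor that carries proteins into the nucleus. Every animal, WT and KO, was 8 to 9 weeks old and had been given 1 mg/kg lipopolysaccharide (LPS) into the peritoneum 20 h before tissue was taken. Microglia and astrocytes were isolated from the dissociated brain of each of 6 animals, 3 per genotype, so that each animal gave 1 library of each cell type and each of the 4 groups held 3 libraries. Mice without LPS were not analysed here, so no value below measures a response to LPS. The allele, its deleted part and the promoter of any transgene are not stated in the labels used here.

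Cells take up iron bound to transferrin (Trf) through the transferrin receptor (Tfrc), reduce it with enzymes such as those of the STEAP family, store it in shells of ferritin heavy (Fth1) and light (Ftl1) chains, and export it through ferroportin (Slc40a1) with the help of the ferroxidase ceruloplasmin (Cp). Slc11a1 moves metal ions out of phagosomes, Hmox1 releases iron from heme, and lipocalin-2 (Lcn2) binds bacterial siderophores, the small molecules with which bacteria collect iron. During infection, macrophages are known to hold iron back from microbes, and in the brain lipocalin-2 is best known as a protein that reactive astrocytes secrete.

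Several of these genes are controlled after transcription by the iron-responsive element, an RNA stem-loop bound by iron regulatory proteins when iron is low. In a 5′ untranslated region (UTR) it blocks translation, and in the 3′ UTR of Tfrc it protects the transcript. The elements are shown because an RNA level of these genes is not a level of protein. The form searched was a C, a stem of 5 bases, the loop CAGTGN and 5 bases that pair with the stem (G·T pairs allowed, transcript strand only). It was found in the 5′ UTR of 3 of the 10 genes and in the 3′ UTR of 1, while 0.142% of 21877 protein-coding genes had it in a 5′ UTR and 0.59% in a 3′ UTR (GENCODE M21, build GRCm38). Each line gives 29 bases, 5′ to 3′, with the loop in capitals.
Fth1, 5′ UTR, chr19:9982732-9982760, plus strand: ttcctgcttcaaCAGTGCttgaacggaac
Ftl1, 5′ UTR, chr7:45459779-45459807, minus strand: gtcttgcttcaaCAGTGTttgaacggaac
Slc40a1, 5′ UTR, chr1:45925465-45925493, minus strand: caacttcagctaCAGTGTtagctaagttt
Tfrc, 3′ UTR, chr16:32631219-32631247, plus strand: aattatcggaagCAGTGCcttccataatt
Tfrc, 3′ UTR, chr16:32631598-32631626, plus strand: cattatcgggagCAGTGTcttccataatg
Tfrc, 3′ UTR, chr16:32631663-32631691, plus strand: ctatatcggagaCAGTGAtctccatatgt
Tfrc, 3′ UTR, chr16:32631710-32631738, plus strand: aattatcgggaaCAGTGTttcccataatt
The elements of the 2 ferritin genes shared 26 of 29 bases, and those of Fth1 and Slc40a1 shared 13 of 29.

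The microglia libraries held 10.3 M to 14.5 M counts each and the astrocyte libraries 10.7 M to 15.6 M, and 3 counts, the limit that a count of 0 allows, correspond to 0.193 to 0.291 CPM, counts scaled by the library total. Kpna4 itself lay between 59.8 and 96.4 CPM in microglia and between 40.1 and 80.2 CPM in astrocytes with WT and KO overlapping, so KO below refers to libraries labelled KO. Summed microglia markers were at 12600 to 16200 CPM in microglia and at 193 to 541 CPM in astrocytes, which on average is 2.55% of the microglia level. Summed astrocyte markers were at 14700 to 19700 CPM in astrocytes and 319 to 707 CPM in microglia, on average 2.45% of the astrocyte level. Oligodendrocyte markers reached 287 to 1750 CPM in microglia and 888 to 4100 CPM in astrocytes, and choroid plexus markers 358 to 2220 and 532 to 1130 CPM. In bulk libraries such as these, fewer cells of a type and less RNA per cell cannot be told apart.

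The first comparison asked how the 2 cell types divide iron handling between them. Of the 10 genes, 8 differed between astrocytes and microglia at an adjusted p under 0.05 in edgeR's quasi-likelihood test of all 12 libraries. Steap4, Cp and Tfrc were higher in astrocytes, while Slc11a1, Slc40a1, Hmox1, Ftl1 and Trf were higher in microglia. Lcn2 and Fth1 did not pass. Such differences were common in these libraries: 64.6% of the 17294 genes tested were called, 36.4% as higher and 28.2% as lower in astrocytes. The 8 calls and their directions were the same in the WT animals alone, where 48.8% of all genes were called, and in the KO animals alone, where 52% were called. The median log2 fold change of the 10 genes, astrocytes over microglia, was -1.12, against 0.192 over all genes.

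**Figure D1:**
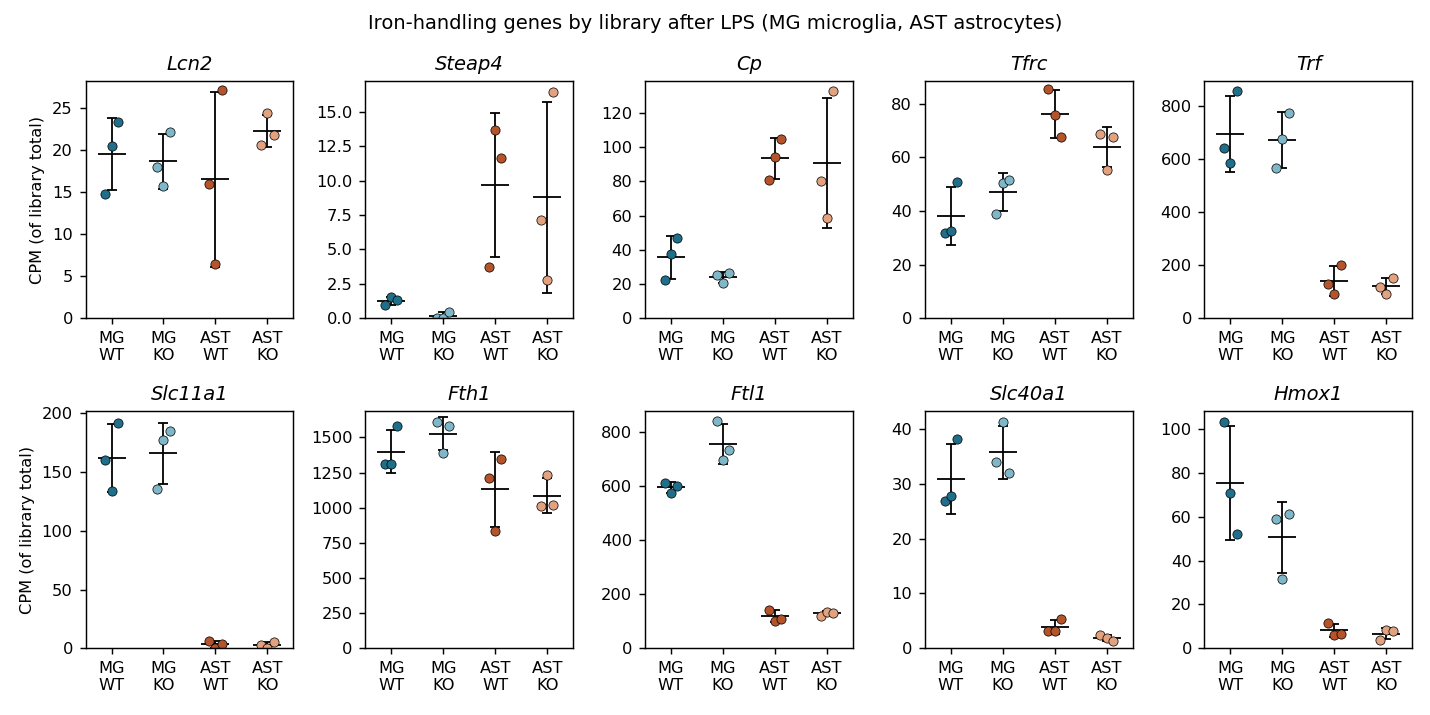
CPM of the 10 genes (vertical axis, linear from 0, own scale per panel) in each library (points), with mean and SD of 3 libraries per group (bars). MG stands for microglia and AST for astrocytes. Slc11a1 lies between 134 and 192 CPM in microglia and at 6.12 CPM or less in astrocytes, while the 4 groups overlap for Lcn2.

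Lcn2 was detected in every library of both cell types, with overlapping levels. In microglia it was at 14.8, 20.4 and 23.3 CPM in the WT and at 18.0, 15.7 and 22.1 CPM in the KO libraries. In astrocytes it was at 15.9, 6.42 and 27.1 CPM in the WT and at 20.6, 24.3 and 21.7 CPM in the KO libraries. The lowest value of all was that of WT astrocyte replicate 2, and the highest that of WT astrocyte replicate 3, so the range within 1 group spanned the whole set. The log2 fold change of astrocytes over microglia was 0.29 (edgeR adjusted p 0.395, SE 0.29), and Lcn2 was higher in astrocytes in 4 of 6 animals. An interval of 2 SE ran from -0.29 to 0.87, and the direction turned without KO replicate 2, at -0.05, and in the WT animals alone, at -0.10. In the KO animals alone it was 0.68 (edgeR adjusted p 0.180), the highest value of the alternatives run.

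Lcn2 is usually listed among genes raised in reactive astrocytes, with Steap4 and Cp. Of 13 genes of that list 12 were called between the cell types, 92.3% against 64.6% of all genes, 10 of them as higher in astrocytes, and Lcn2 was the 1 not called in the fit over both genotypes. In the WT animals alone 10 of 13 were called and in the KO animals alone 11. The 2 called as higher in microglia were Cxcl10, a chemokine, and Hspb1, a heat shock protein. Hspb1 libraries overlapped between the cell types. WT microglia replicates 1, 2 and 3 were at 122, 13.4 and 6.31 CPM, and WT astrocytes at 6.83 to 15.4 CPM. KO microglia were at 8.72 CPM or more, and KO astrocytes at 4.82 CPM or less. Hspb1 did not pass in the WT animals alone (edgeR adjusted p 0.0628) or in the KO animals alone (edgeR adjusted p 0.212), while Cxcl10 passed in both. Osmr, a receptor of oncostatin M from the same list, was at 11.2 to 23.7 CPM in astrocytes and at 1.08 CPM or less in microglia. Serpina3n, a secreted protease inhibitor of the list, was at 280 to 690 CPM in astrocytes. In microglia it was at 3.05 to 19.2 CPM, on average 2.02% of the astrocyte level. For Lcn2 that average was 98.5% in CPM of the library total, while the edgeR fold of microglia over astrocytes was 0.818. Neutrophils store lipocalin-2 in their granules. The markers of neutrophils other than Csf3r summed to 2.96 to 32.0 CPM in microglia and 4.51 to 14.7 CPM in astrocytes. Of these, S100a9 had counts in all 12 libraries, at 1.97 to 15.5 CPM in microglia and 2.19 to 11.2 CPM in astrocytes. Elane was at 0 in all 12. WT microglia replicate 3, with the highest neutrophil sum, 32.0 CPM, had the highest Lcn2 among microglia, 23.3 CPM. WT microglia replicate 2, with the lowest sum, 2.96 CPM, had 20.4 CPM. Among astrocytes, WT replicate 1, with the highest sum, 14.7 CPM, had 15.9 CPM of Lcn2. WT astrocyte replicate 3, with the lowest astrocyte sum, 4.51 CPM, had the highest Lcn2, 27.1 CPM. The part of neutrophil RNA in the Lcn2 values was not tested. Csf3r, also a receptor gene of microglia, was at 455 to 514 CPM in microglia and at 3.66 to 19.4 CPM in astrocytes.

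Steap4 encodes a metalloreductase that reduces iron and copper. In astrocytes it was at 3.74, 13.7 and 11.6 CPM in the WT and at 7.14, 2.79 and 16.4 CPM in the KO libraries. In microglia it was at 0.980, 1.53 and 1.29 CPM in the WT libraries, and in the KO libraries at 0, 0 and 0.482 CPM, which is 0 to 7 counts. Every astrocyte library was above every microglia library. The log2 fold change was 4.49 (edgeR adjusted p 7.98e-05, SE 0.73), a value that depends on the prior count because 2 microglia libraries had no count. In the WT animals alone, where all libraries had counts, it was 3.11 (SE 0.94, adjusted p 0.0136). Astrocyte markers in microglia stood at 2.45% of their astrocyte level and Steap4 at 7.74%. The part of carried-over astrocyte RNA in the microglia value was not tested.

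Tfrc, the receptor for transferrin-bound iron, was higher in astrocytes by a log2 fold change of 1.00 (edgeR adjusted p 9.26e-05, SE 0.17). The astrocyte libraries were at 85.5, 75.7 and 67.5 CPM in the WT and at 68.7, 55.2 and 67.7 CPM in the KO animals. The microglia libraries were at 31.6, 32.4 and 50.6 CPM in the WT and at 38.8, 50.5 and 51.7 CPM in the KO animals. The highest microglia and the lowest astrocyte library lay close together, at 51.7 and 55.2 CPM, but did not overlap. By animal the CPM ratio ran from 1.09 to 2.71. Endothelial cells of the brain express Tfrc strongly, and endothelial markers summed to 25.2 to 95.5 CPM in microglia and 32.6 to 136 CPM in astrocytes. Their part in the Tfrc values was not tested.

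Trf, the iron carrier, was higher in microglia, with a log2 fold change of astrocytes over microglia of -2.13 (edgeR adjusted p 1.84e-07, SE 0.19). Its microglia levels were 642, 585 and 854 CPM in the WT and 564, 673 and 773 CPM in the KO libraries. Its astrocyte levels were 128, 89.4 and 201 CPM in the WT and 116, 92.7 and 153 CPM in the KO libraries. Each animal had 4.26 to 7.26 times more in its microglia library. Oligodendrocytes are the best known brain source of transferrin, and choroid plexus makes it too. Summed oligodendrocyte markers were on average higher in astrocyte libraries, at 1810 CPM against 706 CPM in microglia, the opposite order to Trf. Choroid plexus markers averaged 720 CPM in astrocytes and 1000 CPM in microglia, the same order. Unlike Trf, these sums overlapped between the cell types, at 532 to 1130 CPM in astrocytes and 358 to 2220 CPM in microglia. Most of the sum was Ttr, with means of 579 and 888 CPM, while Aqp1 and Folr1 had higher means in both astrocyte groups. WT microglia replicate 2 had the fewest oligodendrocyte markers of all libraries, 287 CPM, and 585 CPM of Trf. Within each group of 3, the library with the most oligodendrocyte markers, replicate 3, was also the one with the most Trf. The part of these cells in the Trf values was not tested.

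Slc11a1 (Nramp1), a metal transporter of the phagosome membrane in macrophages, showed the widest gap of the 10 genes in the fit over both genotypes and in the WT animals alone, while in the KO animals alone Steap4 had the wider one, at 5.87 against -5.57 on the log2 scale. Microglia held 160, 134 and 192 CPM in the WT and 136, 177 and 185 CPM in the KO libraries. Astrocytes held 6.12, 0.569 and 3.49 CPM in the WT and 3.06, 0 and 5.07 CPM in the KO libraries. The log2 fold change of astrocytes over microglia was -5.50 (edgeR adjusted p 5.87e-07, SE 0.55), and 90.7% of all genes had a fold change of no greater size. Its astrocyte level was 1.86% of its microglia level, below the 2.55% at which the summed microglia markers stood in astrocytes. Single markers differed: WT means in astrocytes and microglia were 8.22 and 372 CPM for Siglech, 86.4 and 835 CPM for Sall1. How much of the astrocyte value was carried-over microglia RNA was not tested.

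The transcripts of the ferritin chains were divided unequally. Fth1, the heavy chain with ferroxidase activity, was at 1310, 1310 and 1580 CPM in WT and 1610, 1390 and 1580 CPM in KO microglia. In astrocytes it was at 1210, 835 and 1350 CPM in the WT and 1010, 1230 and 1020 CPM in the KO libraries. The cell types overlapped, and the log2 fold change was -0.10 (edgeR adjusted p 0.600, SE 0.17), with 2 SE reaching from -0.44 to 0.23. The call differed under 2 alternatives. In CPM of the library total, Fth1 was lower in the astrocyte library of 6 of 6 animals, and with no scaling factor the log2 fold change was -0.40 (adjusted p 0.0366). Without KO replicate 2 it was -0.44 (adjusted p 0.0364). The TMM factors, which adjust each library for its composition, ran from 0.981 to 1.17 in microglia and from 0.72 to 1.01 in astrocytes, where 8 abundant non-coding RNAs took 26.2% to 39.5% of the counts against 11.8% to 15.4% in microglia.

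Ftl1, the light chain that promotes mineralisation of the iron core, was at 613, 574 and 602 CPM in WT and 841, 696 and 733 CPM in KO microglia. In astrocytes it was at 144, 102 and 110 CPM in the WT and 121, 135 and 132 CPM in the KO libraries. No library of one cell type reached the other, and the log2 fold change was -2.15 (edgeR adjusted p 2.01e-08, SE 0.16). It stood in astrocytes at 18.3% of the microglia level, above the 2.55% of the summed microglia markers. How much of the astrocyte value was carried-over microglia RNA was not tested. Ferritin genes have processed copies that can take or lend reads. Of 5 copy symbols searched, Ftl1-ps2 was in the tables with at most 2 counts in a library, and none of the 120 counts of the 10 genes was fractional at a tolerance of 0.001.

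The counts of Fth1 over those of Ftl1 describe this difference without any scaling, because library total and gene length cancel between libraries. The ratio was 2.14, 2.28 and 2.63 in WT and 1.92, 2 and 2.15 in KO microglia. It was 8.37, 8.18 and 12.3 in WT and 8.37, 9.12 and 7.79 in KO astrocytes. Every animal had the higher ratio in its astrocytes, on average 4.10-fold, with a log2 difference of 2.03 ± 0.17 (SD, n = 6 animals, range 1.84 to 2.23). An exact 2-sided sign-flip test over the 6 animals gave p = 0.0312, the smallest that 6 animals allow. This ratio was chosen after its values were seen. Between KO and WT the log2 ratio differed by -0.21 in microglia (exact permutation p 0.2) and by -0.17 in astrocytes (exact permutation p 0.6), where 3 against 3 cannot go below 0.1.

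**Figure D2:**
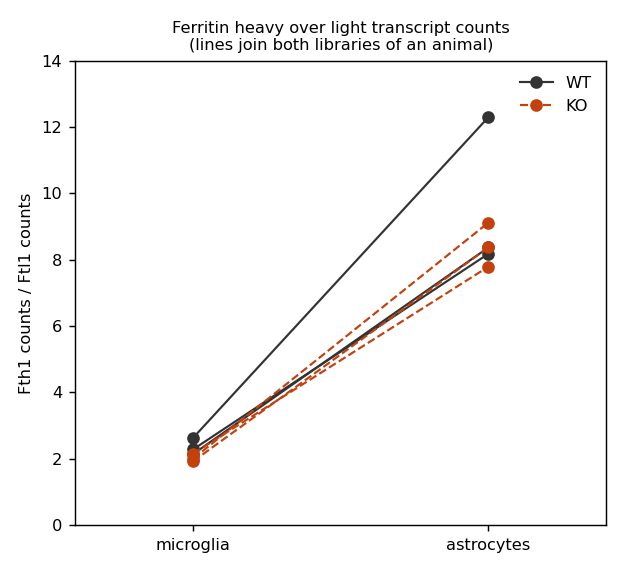
Fth1 counts divided by Ftl1 counts (vertical axis, linear) in the microglia and the astrocyte library of each animal, joined by a line (solid for WT, dashed for KO). All microglia values lie between 1.92 and 2.63 and all astrocyte values between 7.79 and 12.3.

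Of the export genes, Slc40a1 and Cp pointed in opposite directions. Slc40a1, encoding ferroportin, the known iron exporter of mammalian cells, was at 26.8, 27.7 and 38.2 CPM in WT and 33.9, 41.2 and 32.0 CPM in KO microglia. In astrocytes it was at 3.24, 3.09 and 5.40 CPM in the WT and 2.47, 1.95 and 1.35 CPM in the KO libraries. Microglia libraries were all above astrocyte libraries, and the log2 fold change was -3.32 (edgeR adjusted p 5.17e-08, SE 0.27). The astrocyte level was 8.75% of the microglia level.

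Cp, a copper enzyme that oxidises exported iron, was at 80.7, 94.4 and 105 CPM in WT and 80.2, 58.8 and 133 CPM in KO astrocytes. In microglia it was at 22.2, 37.4 and 46.9 CPM in the WT and 25.0, 20.3 and 26.5 CPM in the KO libraries. All astrocyte libraries were higher, by a log2 fold change of 1.93 (edgeR adjusted p 8.63e-07, SE 0.20). Choroid plexus also makes ceruloplasmin. Its summed markers overlapped between the cell types, at 358 to 2220 CPM in microglia and 532 to 1130 CPM in astrocytes, and were higher in the astrocyte library of 3 of 6 animals. Their part in the Cp values was not tested.

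Hmox1, the inducible heme oxygenase, was at 103, 70.8 and 51.9 CPM in WT and 58.7, 31.8 and 61.0 CPM in KO microglia. In astrocytes it was at 11.7, 6.18 and 6.77 CPM in the WT and 3.74, 8.47 and 7.83 CPM in the KO libraries. The cell types did not overlap, and the log2 fold change was -2.76 (edgeR adjusted p 2.25e-06, SE 0.32). Border macrophages, which sit at brain vessels and meninges, are known for Hmox1, Slc40a1 and Cd163. Their marker sum was 150 to 328 CPM in microglia libraries and 9.31 to 26.1 CPM in astrocyte libraries, and its part in these values was not tested.

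Beyond the 10 genes, 42 further iron genes were listed and 36 of them passed the filter. Of these, 23 were called between the cell types, 10 as higher and 13 as lower in astrocytes, which is 63.9% against 64.6% of all genes, so the list as a whole was near the background. In the WT animals alone 15 of 36 were called, 41.7% against 48.8% of all genes, and in the KO animals alone 22, 61.1% against 52% of all genes. Their median log2 fold change was 0.00, against 0.192 over all genes. Uptake and reduction had 2 called as higher and 3 as lower of 10, heme handling 5 and 5 of 11, and regulators 2 and 4 of 8. Of the 3 genes of mitochondrial iron-sulfur supply 0 were called.

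The called genes with the largest excess in astrocytes were Heph, Neo1, Flvcr2, Bmp6 and Tfr2. Heph encodes hephaestin, a ferroxidase related to ceruloplasmin, and had a log2 fold change of 5.73 (edgeR adjusted p 1.43e-08, SE 0.41), from a mean of 2.12 CPM in WT microglia to 78.0 CPM in WT astrocytes. Neo1, a co-receptor in the sensing of iron by bone morphogenetic proteins, had 3.86 (SE 0.21), and Bmp6, the ligand of that pathway, 3.14 (SE 0.49). Flvcr2 had 3.51 (SE 0.81), with no count in 2 of 3 KO microglia libraries. Tfr2, another transferrin receptor, had 3.09 (SE 1.23, adjusted p 0.0397) with libraries that overlapped and 7.40 CPM at most. In the WT animals alone neither passed, with adjusted p of 0.267 for Flvcr2 and 0.122 for Tfr2.

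The called genes with the largest excess in microglia were Cd163, Bach1, Slc39a8, Slc25a37 and Hfe. Cd163, the scavenger receptor for hemoglobin and a marker of border macrophages, had a log2 fold change of -3.63 (edgeR adjusted p 3.44e-05, SE 0.54). Mrc1, another marker of those macrophages, had means of 112 CPM in WT and 93.9 CPM in KO microglia. Bach1, the heme-sensing repressor of Hmox1 and the ferritin genes, had -3.42 (SE 0.20, adjusted p 1.71e-09), and it was at 202 to 260 CPM in microglia. Slc39a8, a metal importer, had -2.93 (SE 0.26), Slc25a37, which brings iron into mitochondria, -2.87 (SE 0.27), and Hfe, a partner of the transferrin receptor, -2.56 (SE 0.25). Slc22a17, described as a receptor for lipocalin-2, was among the genes called as higher in astrocytes. Its log2 fold change was 1.32 (SE 0.25, adjusted p 3.53e-04), and it is named here after its value was seen. In the WT animals alone its adjusted p was 0.0552.

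**Figure D3:**
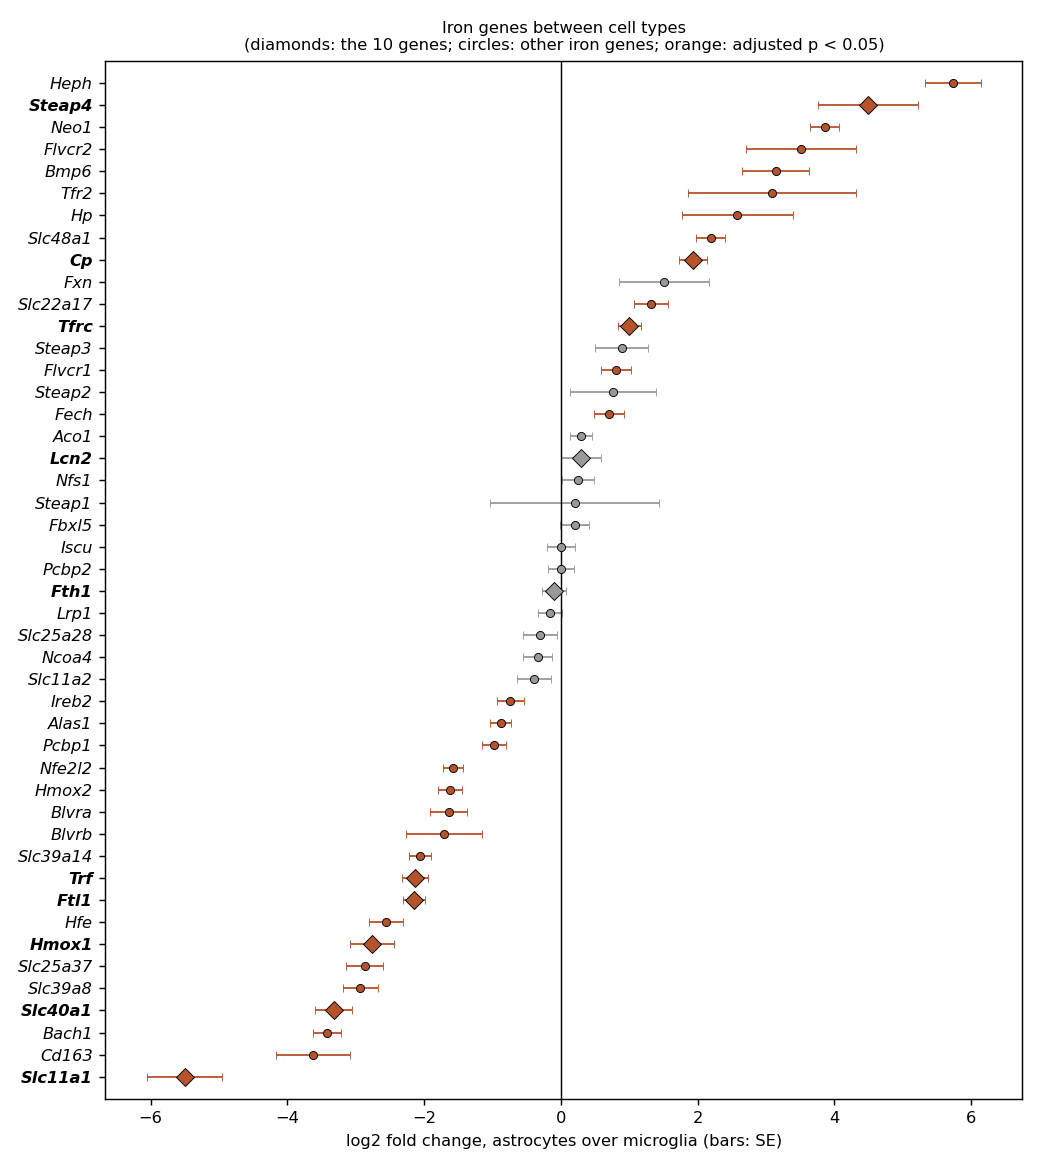
Log2 fold change of astrocytes over microglia (horizontal axis) with its SE for the 10 genes (diamonds, bold names) and 36 other iron genes (circles), ordered by value, with calls at an adjusted p under 0.05 in orange. The 46 values run from -5.50 for Slc11a1 to 5.73 for Heph, with Lcn2 and Fth1 in grey near 0.

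The second comparison asked whether these genes differed between libraries labelled KO and WT within a cell type. Between KO and WT, 0 of the 10 genes were called in microglia and 0 in astrocytes by edgeR, where 0% of 14191 and 0% of 15755 genes were called. At an unadjusted p under 0.05 there were also 0 of the 10 in either cell type, while 7.42% of all genes in microglia and 2.37% in astrocytes had such a p. DESeq2 and limma voom called 0 of the 10 in both as well. The median log2 fold change of the 10 genes was -0.03 in microglia and -0.09 in astrocytes, where the medians of all genes were -0.00129 and -0.00684. These tests do not show that the genotypes are alike. In counts simulated for microglia with 3 libraries a group, 4-fold changes were found in 54.6% of cases and 2-fold changes in 0%. That simulation gave every gene the same dispersion and did not cover KO against WT astrocytes. The 10 genes differed in their error, with an SE in microglia from 0.18 for Fth1 to 1.46 for Steap4. For Fth1 in microglia 2 SE reached from -0.25 to 0.46.

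Of the 10 genes, 2 in microglia and 1 in astrocytes had KO and WT libraries that did not overlap, and none of them passed. Ftl1 was higher in all 3 KO microglia libraries, at 696 to 841 CPM against 574 to 613 CPM, with a log2 fold change of 0.32 (edgeR adjusted p 0.737, SE 0.18). Steap4 was lower in all 3 KO microglia libraries, at 0 to 7 counts against 13 to 17 counts (log2 fold change -2.85, SE 1.46, edgeR adjusted p 0.715). Under the alternatives this value ran from -6.93 to -2.32, the lowest without KO replicate 3, which leaves KO libraries with no count, and none passed. Summed astrocyte markers in the same libraries averaged 517 ± 194 CPM in the WT and 355 ± 14.3 CPM in the KO microglia (SD over 3 libraries, exact permutation p 0.4), and their part in the Steap4 values was not tested. Slc40a1 was lower in all 3 KO astrocyte libraries, at 1.35 to 2.47 CPM against 3.09 to 5.40 CPM (log2 fold change -0.88, SE 0.83, adjusted p 0.999). In all, 13.1% of genes in microglia and 8.13% in astrocytes had KO and WT libraries that did not overlap.

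Cp and Hmox1 had means that were lower in KO microglia, with overlapping libraries. Cp had a log2 fold change of -0.58 (edgeR adjusted p 0.680, unadjusted p 0.0543, SE 0.28). The choroid plexus marker sum also had a lower mean in KO microglia. It was 887, 1110 and 2220 CPM in WT and 358, 549 and 897 CPM in KO microglia (exact permutation p 0.2 for 3 against 3 libraries). WT replicate 3 was highest in both. WT replicate 1, with a sum of 887 CPM, had 22.2 CPM of Cp, and KO replicate 1, with 358 CPM, had 25.0 CPM. Endothelial markers had a lower mean in KO microglia as well, at 29.7 CPM against 66.3 CPM, while border macrophage markers did not, at 261 CPM against 249 CPM. The part of choroid plexus RNA in the Cp values was not tested. Hmox1 had a log2 fold change of -0.61 (edgeR adjusted p 0.690, unadjusted p 0.0580, SE 0.29), with the highest value, 103 CPM, in WT replicate 1.

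Lcn2 had a log2 fold change of -0.08 (edgeR adjusted p 0.965, SE 0.28) in microglia and of 0.60 (SE 0.43, adjusted p 0.999) in astrocytes. The astrocyte value rested in part on the WT library at 6.42 CPM: without WT replicate 2 it was 0.24. The means were 16.5 ± 10.3 CPM in the WT and 22.2 ± 1.91 CPM in KO astrocytes (SD, n = 3 each), so the WT spread was wider than the difference. Tfrc had 0.28 (SE 0.24) in microglia and -0.15 (SE 0.21) in astrocytes. Fth1 had 0.10 in both (SE 0.18 and 0.23), Trf -0.07 (SE 0.20) and -0.08 (SE 0.26), and Slc11a1 0.01 (SE 0.20) and -0.29 (SE 1.27). Slc40a1 in microglia had 0.19 (SE 0.24), and in astrocytes Steap4 had -0.09 (SE 0.63), Ftl1 0.26 (SE 0.22), Cp 0.05 (SE 0.25) and Hmox1 -0.14 (SE 0.54). All 20 edgeR adjusted p were between 0.680 and 0.999.

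**Figure D4:**
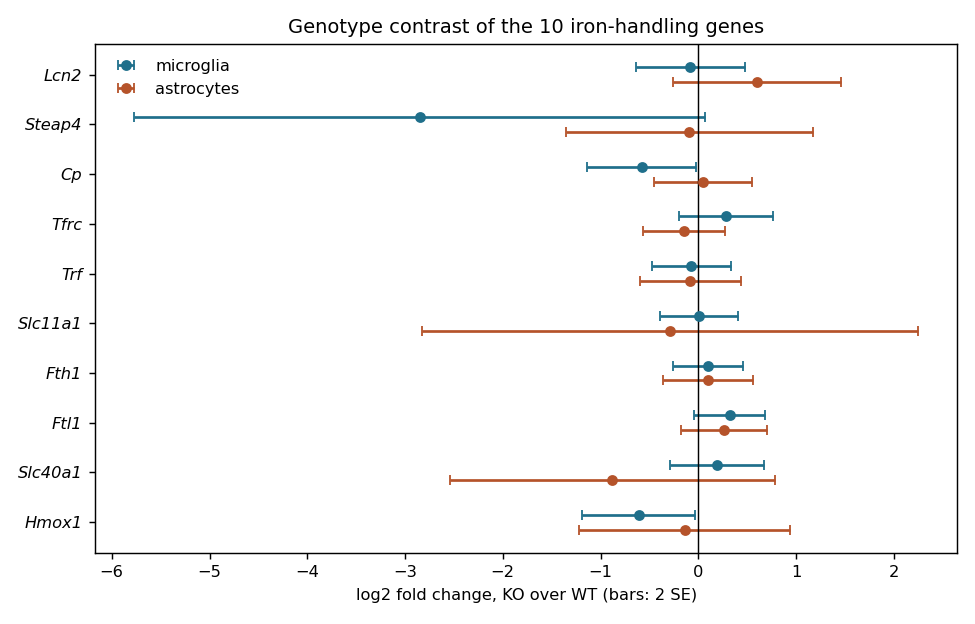
Log2 fold change of KO over WT (horizontal axis) for the 10 genes in microglia (blue) and astrocytes (orange), with bars of 2 SE either side. None passed an adjusted p under 0.05, and the widest bars belong to Steap4 in microglia, at -2.85 with an SE of 1.46, and to Slc11a1 in astrocytes, at -0.29 with an SE of 1.27.

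Whether the genotype effect differed between the cell types was tested as an interaction, which called 0 of the 10 genes and 0% of 17294 genes. The median over all genes was 0.157. The log2 fold change in astrocytes less the one in microglia was 2.76 (SE 1.34) for Steap4, -0.99 (SE 0.50) for Slc40a1, 0.72 (SE 0.39) for Cp and 0.78 (SE 0.58) for Lcn2, with edgeR adjusted p of 0.799, 0.822, 0.847 and 0.913.

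Of the 42 further iron genes, 0 were called between KO and WT in either cell type. At an unadjusted p under 0.05 there were 4 of 34 in microglia and 2 of 36 in astrocytes, where 7.42% and 2.37% of all genes had such a p. In microglia, Lrp1, which clears heme bound to hemopexin, had a log2 fold change of -0.69 (edgeR adjusted p 0.551, SE 0.22), with 2650 to 3970 CPM in WT and 1600 to 2210 CPM in KO libraries. Neo1 had -0.96 (SE 0.39), Flvcr2 -4.15 (SE 1.49) from at most 2.43 CPM, and Blvrb, a biliverdin reductase, 1.09 (SE 0.46), with adjusted p of 0.620, 0.587 and 0.638. In astrocytes, Steap3, the endosomal iron reductase, was at 3.66 to 8.35 CPM in WT and 9.77 to 14.1 CPM in KO libraries (log2 fold change 1.03, SE 0.44, adjusted p 0.999). Nfe2l2, the oxidative stress regulator that drives Hmox1 and ferritin genes, was at 51.8 to 68.6 CPM in WT and 73.3 to 90.4 CPM in KO astrocytes (log2 fold change 0.56, SE 0.23, adjusted p 0.999). In microglia Nfe2l2 was at 201 to 252 CPM in WT and 288 to 321 CPM in KO libraries, with a log2 fold change of 0.39 (edgeR adjusted p 0.680, SE 0.19).

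The genes whose log2 CPM followed that of Lcn2 most closely over the 6 libraries of a cell type were Trappc13, Rnf11, M6pr, Usp27x and Rfx3 in microglia, with Pearson r from 0.979 to 0.991 among 12430 genes compared. In astrocytes they included Agtpbp1, Pdlim2, Ubl4a and Spata6, with r from 0.982 to 0.995 among 13679 genes. None of the 10 iron genes was among them: the closest was Cp in microglia, at r = 0.814, and Fth1 in astrocytes, at r = 0.797. These values describe 6 libraries that share 2 genotypes and a library preparation, and the highest of so many r are high by selection.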

How the data were processed

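Microglia and astrocytes from the brains of LPS-treated mice were profiled by RNA-seq of full-length cDNA. The authors deposited estimated counts per gene symbol, 1 table per cell type and 1 column per library. The submitters' processing notes name STAR 2.7.10b, RSEM 1.3.3, limma and GRCm39 with no role or order. Which annotation was used, the sources used here do not give. No molecular identifiers were used, so floors from counts cover counting error only.

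Counts were rounded and scaled to CPM of the library total. edgeR 4.0.16 (R 4.3.3) used its quasi-likelihood test with TMM factors, filterByExpr with a minimum count of 10 and Benjamini-Hochberg adjustment over all genes tested. KO and WT were compared within the 6 libraries of a cell type. The cell types and the interaction were tested in 1 fit of 12 libraries without a block. The labels tie the microglia and the astrocyte library of each animal together by its number, and their deviations from group means correlated at 0.00 to 0.10. SE is the log2 fold change over the square root of F. The edgeR code was tested on counts simulated with the same dispersion for every gene. For KO against WT microglia 54.6% of 4-fold and 0% of 2-fold changes were recovered (13904 genes). For astrocytes against microglia 92.9% and 21.6% were recovered (16543 genes). There the simulated dispersion was below the one fitted to the real libraries, and few genes were changed. These 2 rates therefore do not describe the real comparison of the cell types. Single values were compared with exact permutation tests. Stem-loops were searched in GENCODE M21 protein-coding transcripts (GRCm38), matched by symbol for 10 of 10 genes. Alternatives used DESeq2 1.42.0, limma 3.58.1 (voom), other scalings and filters, a block and each replicate left out.

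The 10 genes, the further iron genes, the marker lists and the tests were chosen with earlier results of these data known. Named were the 10 genes, further iron genes at an unadjusted p under 0.05 for KO against WT, the 5 largest called differences each way between cell types, and the 5 genes closest to Lcn2 in each cell type, leaving out clone and model names. Of the last, 1 gene in astrocytes is not reported here.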

Additional observations from a re-analysis of the deposited data

How the results depend on the processing

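Between KO and WT, 0 of the 10 genes were called under every alternative run, and between the cell types 8 were called under each except the 2 that added Fth1 (no scaling factor and without KO replicate 2). Counts over all genes moved more. In microglia, where edgeR called 0, DESeq2 called 41, edgeR without a filter 121, the fit of all 12 libraries 41 and the replicate block 30, and leaving out 1 library gave 0 to 2. In astrocytes DESeq2 called 4 and edgeR without a filter 17, and leaving out 1 library gave 0 to 1. For the interaction the counts were 62, 160 and 0 to 6. There, and between the cell types, leaving out a replicate dropped both libraries of an animal. Numbers shared by WT and KO animals were not taken as pairs, since not every same-numbered pair correlated above 0.1: they correlated at 0.05 to 0.19 in microglia, where each library correlated best with its own number (others -0.16 to 0.03), and at -0.02 to 0.23 in astrocytes (others -0.16 to 0.10). With the animal as a block, 8 of the 10 genes and 10400 of all genes were called between the cell types.

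Some directions of KO over WT turned, none of a gene that had passed. In microglia Slc11a1 was -0.03 at a minimum count of 50 and -0.08 in the fit of all 12 libraries. In astrocytes voom gave 0.28 for Steap4 and -0.06 for Fth1, and no scaling factor gave -0.05 for Fth1 and -0.04 for Cp. Leaving out 1 library gave -0.10 to 0.15 for Slc11a1, -0.25 to 0.05 for Lcn2 and -0.17 to 0.09 for Trf in microglia. In astrocytes it gave -1.13 to 0.49 for Slc11a1, -0.27 to 0.19 for Cp, -0.50 to 0.22 for Hmox1, -0.86 to 0.31 for Steap4, -0.15 to 0.22 for Fth1 and -0.29 to 0.21 for Trf. Between the cell types Lcn2 ran from -0.05 to 0.30, and it was -0.10 in the WT animals alone. The cause was not tested. Without scaling factors the median of all genes between the cell types moved from 0.192 to -0.0879, and 48.7% of calls were higher in astrocytes against 56.3%. The KO minus WT difference in summed neutrophil markers in microglia was 0.137 CPM, and -38.3 CPM with TMM factors. That sum includes Csf3r, which averaged 480 of its 494 CPM in microglia. Without Csf3r the sum averaged 14.1 CPM there. No scaling factor, the genotype-wise contrasts, the ferritin ratio and the list without Csf3r were added after seeing the data.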
